A study of Drosophila melanogaster with 24 samples.

Results

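Sites of the clock activator CLOCK (CLK) on chromatin were compared between the head and the testis of Drosophila melanogaster. The members were all 1016 CLK sites listed for head and all 2491 listed for testis, 3507 of the 7810 sites in the 6 lists of the series, which also covered CYCLE (CYC) and the ovary. Sites of the 2 tissues were matched where they had at least 1 bp in common. A site was counted for every protein-coding gene that held its midpoint or lay within 1 kb of it, so neighbouring or nested genes could share a site.

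The CLK lists of head and testis each drew on 2 libraries precipitated with an antibody against GFP and 2 input libraries. Chromatin came from 200 heads or 200 pairs of testes for each replicate, collected at zeitgeber time 10 h. One list was given for each tissue and none for each replicate, so the comparison had no error between replicates and no test was made. The intervals below are exact Clopper-Pearson 95% intervals, which cover the counting of sites only. Genotype, age, the sex of the head donors and a library from flies without GFP are not given in the sources used here. Read depth was unknown, and a site missing from a list does not show that CLK was absent. Lists of bound sites hold no marker expression, so the tissue labels could not be checked against cell type markers.

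CLK and CYC are bHLH-PAS proteins that bind DNA as a pair at E-box elements. In clock cells they activate period (per) and timeless (tim), whose products feed back on the pair. They also drive vrille (vri) and Par-domain protein 1 (Pdp1), which encode bZIP factors of opposite sign acting on Clk. In the head the best known sites of this oscillator are the clock neurons of the brain, the photoreceptors of the eye and the fat body, while the testis holds germ cells from stem cell to sperm together with somatic cyst and hub cells.

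The same place was bound rarely. Of the head sites, 29 overlapped a testis site (2.85%, 95% interval 1.92 to 4.07%), and these met 29 of the testis sites (1.16%, 0.781 to 1.67%). The median gap from a head site to the nearest testis site was 14736 bp. Widening the reach to 500 bp brought the count to 55 head sites (5.41%), and 423 head sites (41.6%) had a testis site within 10000 bp. For comparison, 8 of 394 CYC sites of head (2.03%, 0.881 to 3.96%) and 8 of 1583 CYC sites of testis (0.505%) overlapped. Between CLK in testis and ovary the overlap was 70 of 2491 testis sites (2.81%, 2.20 to 3.54%) and 74 of 351 ovary sites (21.1%, 16.9 to 25.7%). Between CLK in head and ovary it was 3 of 1016 head sites (0.295%) and 3 of 351 ovary sites (0.855%).

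Among all 13922 protein-coding genes of the X, 2L, 2R, 3L, 3R and 4, 1263 (9.07%) had a CLK site in head and 2480 (17.8%) had one in testis. Sites of both tissues were found at 326 genes (2.34%). At 32 of these (0.23% of all genes) a head and a testis site overlapped, and at 294 (2.11%) they lay at different places. Sites in head only were found at 937 genes (6.73%) and sites in testis only at 2154 (15.5%). Since 408 head sites (40.2%) and 783 testis sites (31.4%) counted for several genes, numbers of genes are larger than numbers of independent sites.

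Clk itself, with 7 sites, and fz2, also with 7, had the most sites among genes bound at the same place. Clk had 3 sites in head, at 3L 7764366 to 7764767 (401 bp), 7766492 to 7766969 (477 bp) and 7775436 to 7775814 (378 bp). In testis it had 4, at 7764353 to 7766290 (1937 bp), 7766599 to 7766989 (390 bp), 7768670 to 7769019 (349 bp) and 7769903 to 7770193 (290 bp). The first and the second site of each tissue overlapped, while the head site at the upper end of the gene (7775603) had no testis counterpart and the 2 other testis sites lay inside the gene, 5611 and 5555 bp from its nearer end. Neither overlapping head site met a CYC site of head, and both overlapping testis sites met a CYC site of testis.

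The pigment genes yellow (y) and white (w) on the X were also bound at the same place. In w, which encodes an eye pigment transporter and lies within the much longer annotated adhesion gene kirre, the head site at X 2792204 to 2793070 (866 bp) fell inside a testis site of 2565 bp (2790577 to 2793142). A second head site at the upper end of w, 2796241 to 2796733 (492 bp), overlapped a testis site of 577 bp. In y, whose product is needed for black melanin, a head site of 362 bp (X 359877 to 360239) lay wholly within a testis site of 512 bp. All 3 pairs met a CYC site of testis, and the first pair at w met CYC sites of head and ovary as well. White and yellow sequences are common markers of fly transgenes; whether construct DNA contributed to the sites at w, y or Clk was not tested. Without sites in or within 1 kb of these 3 genes, 24 of 1010 head sites (2.38%) overlapped a testis site.

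At several other genes the shared head site lay wholly inside a wider testis site. Prosbeta5R2, a paralogue of a proteasome core subunit gene, had a head site of 422 bp (2L 17990810 to 17991232) inside a testis site of 821 bp. At phr, which encodes a DNA photolyase, a head site of 300 bp (2R 7826040 to 7826340) lay inside a testis site of 1178 bp. The glycosyltransferase gene Ugt303B3 held a head site of 315 bp (3R 23533243 to 23533558) inside a testis site of 1064 bp, and a further testis site of 307 bp had no match in head. CG7465 and CG9988 had head sites of 367 and 236 bp and testis sites of 853 and 568 bp. At CG7465 the pair met CYC sites of head and of testis, and at Ugt303B3 and CG9988 CYC sites of testis.

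At ClpX, tst, TrissinR, fz2, kn, Con and wdp the head site extended beyond the testis site. Sites of both tissues lay beside the upper end of ClpX, which encodes the chaperone subunit of a mitochondrial protease, and inside the lower end of its neighbour Surf6, a nucleolar protein gene (3R 19903607 to 19904132 in head, 19903775 to 19904019 in testis). Another pair lay inside CG10208, between the RNA helicase gene tst and the nucleoporin gene Nup98-96 (3R 23773204 to 23773487 in head, 23773275 to 23773478 in testis). TrissinR, a neuropeptide receptor gene, had sites just outside its lower end in head (2L 5823755 to 5823970) and in testis (5823573 to 5823834). Farther inside longer genes, sites were shared at the Wnt receptor gene fz2 (49 bp between nearest midpoints), the COE factor gene knot (kn, 55 bp by midpoints), the adhesion gene Connectin (Con, 580 bp wide in head and 232 bp in testis) and the leucine-rich repeat gene windpipe (wdp, 325 and 321 bp). At fz2 4 further testis sites and 1 further head site had no overlap.

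The other genes with an overlapping pair were Atg4a, an autophagy protease gene, with its neighbour CG4629, and CG1513, CG13325, CG10934, CG13894, CG32371, CG32816, CG42322, CG12592, CG18545, CG11089 and CG31381. CG32371 counted through the second pair at Clk and CG32816 through the pair at y, so neither adds a pair. CG12592 and CG18545 counted through the same pair, as did CG11089 and CG31381. In 4 of the 29 pairs the sites had no protein-coding gene in common. Near the limit of the rule, the sites of CG1513 overlapped by 38 bp, while at canoe (cno), which encodes a junction protein, the head site (3R 5198249 to 5198496) and a testis site (5198497 to 5198794) were 1 bp apart and counted as different places.

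**Figure D1:**
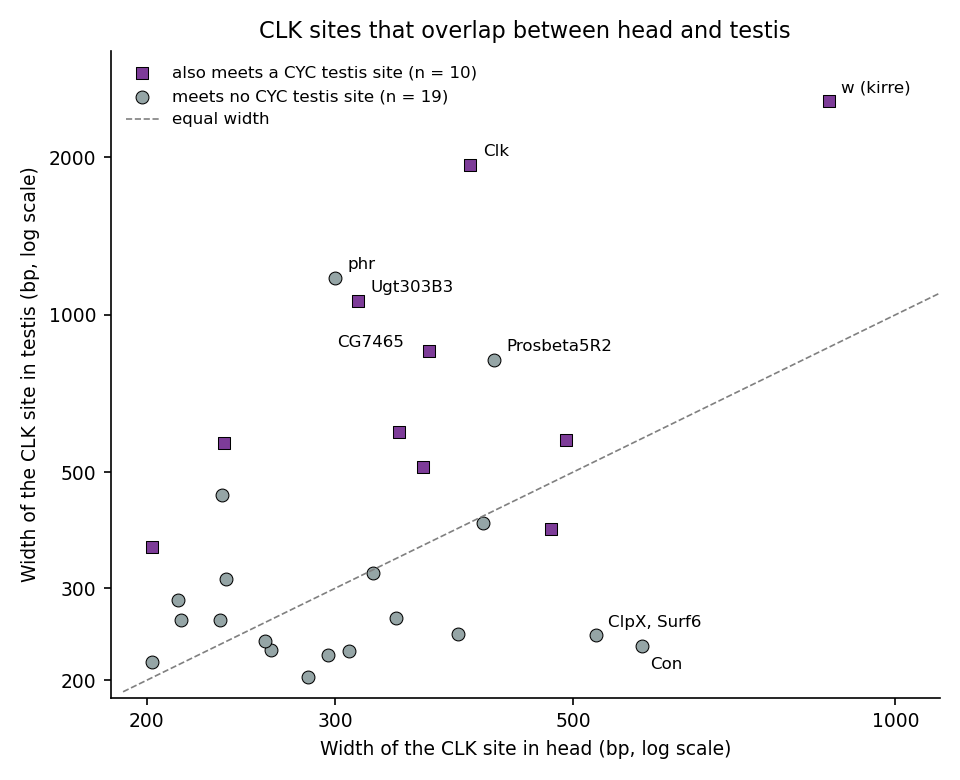
Width of the 29 overlapping CLK sites in head (x axis, bp, log scale) and testis (y axis, bp, log scale); each point is 1 pair, squares mark pairs that also meet a CYC testis site and the dashed line marks equal width. The testis site is the wider in 17 of 29 pairs, and the widest testis sites belong to w, Clk, phr and Ugt303B3.

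Shared sites were wide in the testis list. Their median width was 321 bp in testis and 315 bp in head, against 275 and 285 bp for sites that were not shared. In testis 10 of the 29 were 500 bp or wider (34.5%), against 192 of 2462 others (7.80%). In head 3 of 29 were that wide (10.3%), against 80 of 987 (8.11%). A wider site has more room to meet another, and this was not separated from the widths. Of the 50 widest sites, 6 in testis and 2 in head were shared.

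CYC, the partner of CLK and a readout that the matching did not use, was found at 10 of the 29 shared testis sites (34.5%, 17.9 to 54.3%) and at 212 of the 2462 other testis sites (8.61%, 7.53 to 9.79%). In head it was found at 3 of 29 shared sites (10.3%, 2.19 to 27.4%) and 114 of 987 others (11.6%, 9.62 to 13.7%), with intervals that overlap. The 10 shared testis sites with CYC include those of both pairs at Clk, both at w and the pair at y. The CYC shares were not recomputed without these genes, where construct DNA was not tested. The shared testis sites were also the wider ones, and the part of width in the CYC overlap was not tested. Across tissues, 14 of 1016 CLK head sites met a CYC testis site (1.38%) and 8 of 2491 CLK testis sites met a CYC head site (0.321%).

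Of 16 core clock genes, 7 had a CLK site in head (43.8%, against 9.07% of all genes) and 4 in testis (25.0%, against 17.8%). Their median length was 10713 bp, and of the genes of 5000 bp or more 17.8% had a head site and 25.4% a testis site. Head sites without a testis site were found at vri (6 sites, the widest 2020 bp), Pdp1 (9 sites, 222 to 730 bp), per (3 sites, the widest 1075 bp), the F-box gene jet (1 site, 204 bp) and the kinase gene sgg (2 sites, 220 and 230 bp). Testis sites without a head site were found at cyc (3L 19814005 to 19814488, 483 bp) and at the phosphatase subunit gene tws (230 bp). At tim the head sites lay in the upper part of the gene and at its end (2L 3504801 to 3505459, 658 bp, and 3507123 to 3508243, 1120 bp), and the single testis site of 229 bp (3501784 to 3502013) lay 3231 bp from the nearer of them by midpoints. Both head sites of tim met a CYC head site and the testis site met no CYC testis site. No site of either tissue was listed at cwo, cry, dco, slmb, nmo, CkIIalpha or CkIIbeta.

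**Figure D2:**
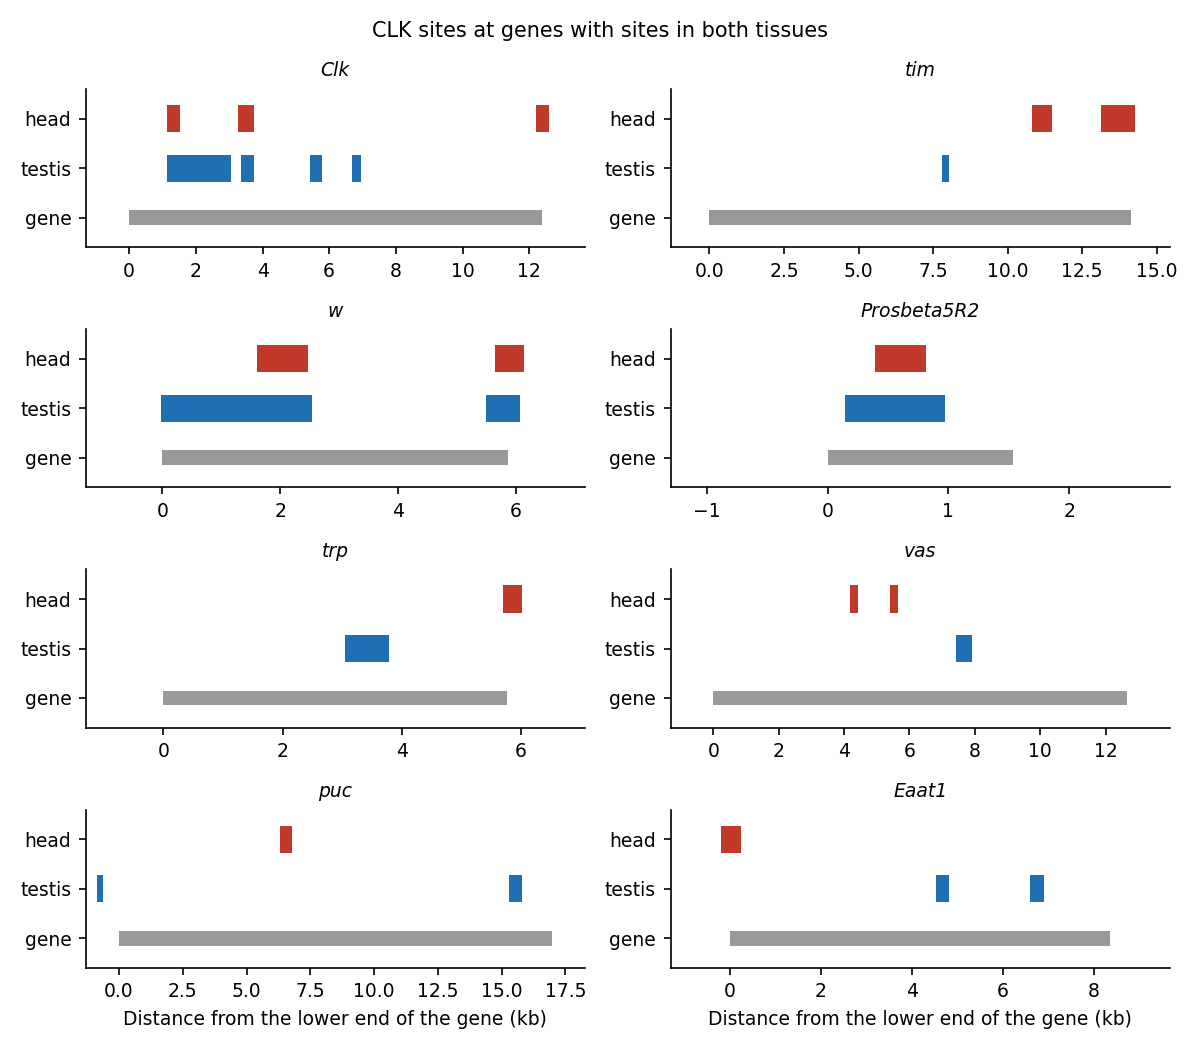
CLK sites (red, head; blue, testis) at 8 genes with sites in both tissues, drawn to scale as distance from the lower end of the annotated gene (grey, kb). At Clk, w and Prosbeta5R2 head and testis sites overlap, whereas at tim, trp, vas, puc and Eaat1 they lie apart.

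At the 294 genes with sites at different places, the nearest head and testis midpoints were a median of 2589 bp apart, from 273 bp at cno to 101917 bp at homothorax (hth), a homeobox gene of 132008 bp. The distance was 500 bp or less at 10 genes, above 500 and up to 1000 bp at 49, and over 10000 bp at 62. The gene of this class with the most sites was Ptp61F, a tyrosine phosphatase gene, with 2 in head and 6 in testis, none closer than 22061 bp by midpoints.

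The 10 genes of this class with the widest sites in both tissues were CG31368, CG14322, puc, fdl, CG13751, ome, Prosalpha7, svp, CG13300 and GluClalpha, the last tied with H15 at 403 bp and placed by symbol. puc encodes the phosphatase that restrains JNK signalling; its head site was inside the gene (3R 8111638 to 8112129, 491 bp), and its testis sites lay 750 bp outside the lower end (242 bp wide) and 1427 bp inside the upper end (8120620 to 8121113, 493 bp). The orphan nuclear receptor gene seven-up (svp) had head sites of 432 and 202 bp and a testis site of 522 bp, 8346 bp from the nearer by midpoints. At Prosalpha7, a proteasome core subunit gene, the head site (446 bp) sat on the upper end and the testis site (582 bp) lay 725 bp outside the lower end. GluClalpha, a glutamate-gated chloride channel gene, had its head site near the lower end (476 bp) and its testis site 40644 bp away (403 bp).

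**Figure D3:**
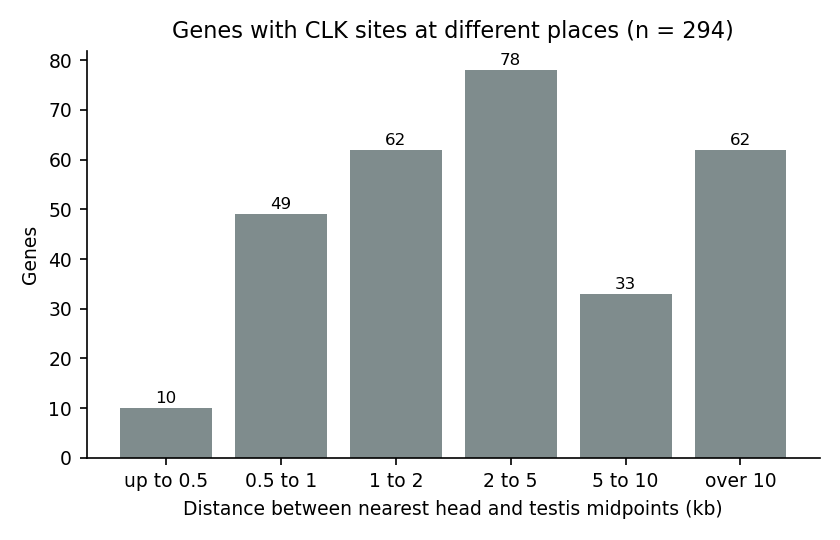
Genes with CLK sites in both tissues at different places (bars, number of genes of 294), by the distance between the nearest head and testis site midpoints (kb). The bin of 2 to 5 kb holds the most genes, 78, and 62 genes have sites more than 10 kb apart.

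Within the same gene, head sites were at the gene's ends more often than testis sites. At 89 of the 294 genes (30.3%) a head site lay within 1 kb of an end and every testis site lay farther inside, and the opposite arrangement was seen at 17 (5.78%). Both tissues had a site near an end at 102 genes (34.7%). At the photoreceptor channel gene trp the head site (3R 29920217 to 29920531, 314 bp) lay across the upper end, its midpoint 85 bp outside, and the testis site (29917572 to 29918308, 736 bp) was 2349 bp inside. Eaat1, a glial glutamate transporter gene, had a head site of 426 bp on its lower end and testis sites of 296 and 317 bp inside. At Tm1, a tropomyosin gene, and KCNQ, a potassium channel gene, the head site lay within 1 kb of an end and the testis site 10625 and 7590 bp inside. The arrangement followed the lists as a whole, in which 63.7% of head sites (60.6 to 66.6%) and 46.9% of testis sites on the same chromosomes (44.9 to 48.9%) lay within 1 kb of an end of some gene. The annotation used here gave no strand, so starts and ends of transcription were not told apart.

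Genes with sites at different places were long, with a median length of 11574 bp against 2163 bp for all genes, 4005 bp for genes with head sites only and 2723 bp for genes with testis sites only. Of them, 111 (37.8%) exceeded 20000 bp, against 7.27% of all genes. The class held 0.287% of the 3481 genes of up to 1178 bp and 5.63% of the 3481 genes of 5000 bp or more. The share with testis sites only ranged less, from 12% to 19.3% of the same genes. A longer gene offers more room for sites of either tissue, and no count was adjusted for length. Shares of several gene lists are set below beside those of all genes in a range of lengths, which is a rough guide only.

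The lists differed on the X chromosome. It held 147 head sites (14.5%, 12.4 to 16.8%) but 34 testis sites (1.36%, 0.947 to 1.90%), and 15.8% of the protein-coding genes. Among the 2197 X genes, 188 (8.56%) had a site in head and 12 (0.546%) in testis, whereas on each of 2L, 2R, 3L and 3R between 20.1 and 21.8% of genes had a testis site. Of the 34 testis sites on X, 3 were shared with head (8.82%, 1.86 to 23.7%), those at w and y named above, against 26 of 2392 on the autosomes (1.09%, 0.711 to 1.59%). With the X genes left out, 321 genes had sites in both tissues, 754 in head only and 2147 in testis only. The sex of the heads is not known here, and the part of X copy number in these shares was not tested.

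**Figure D4:**
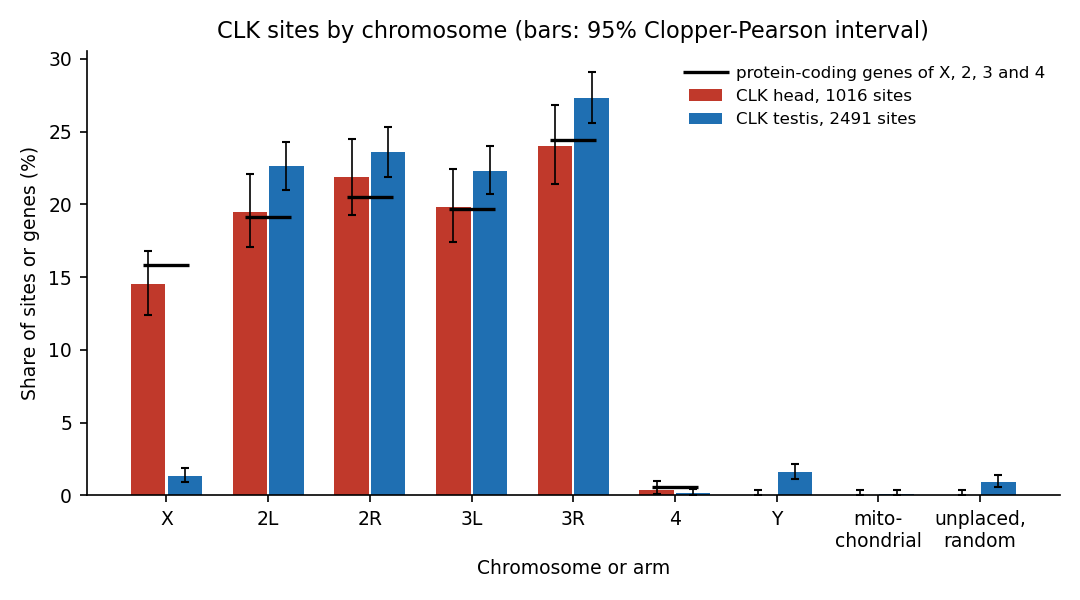
Share of CLK sites (y axis, %) on each chromosome or arm for head (red, 1016 sites) and testis (blue, 2491 sites), with exact 95% intervals; black marks give the share of protein-coding genes. Head sites follow the genes on the X (14.5% and 15.8%), while 1.36% of testis sites lie there.

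The genes with head sites only and the widest sites were vri, per, scrib, CG14556, CG12301, mrn, Bx, HisRS, CG6470 and CG34220. scrib, a cell polarity scaffold gene, held a site of 978 bp inside the gene (3R 26542843 to 26543821). Bx, a LIM-only factor gene, shared 1 site of 901 bp on the X (18515359 to 18516260) with its neighbours HisRS and CG6470. CG12301 and mrn, which encodes a TFIIH subunit, shared a site of 911 bp. CG14556 had sites of 391 and 959 bp, and both met a CYC head site. The wider one also counted for the longer gene Cipc, which spans CG14556 and had a testis site of 263 bp elsewhere.

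In testis only, the widest sites belonged to MFS17 (2R 2546949 to 2551616, 4667 bp), mtt, Sec31, GCC185, Maf1, Ip6k, His3:CG31613, Ugt35E2, Ugt35E1 and Sara. Runs of sites were common among them. mtt, a gene of the metabotropic glutamate receptor family, had 4 sites of 295 to 2015 bp toward its upper end. Sec31, a COPII coat gene, had 4 of 332 to 1705 bp, and the golgin gene GCC185 had 4 of 315 to 1518 bp. Maf1, a repressor of RNA polymerase III, also had 4 sites (202 to 1303 bp). In testis 436 of the 2480 genes with a site had more than 1, and in head 135 of 1263 did.

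Gene lists were read against the share of all genes, 9.07% for head and 17.8% for testis. Transcription factors of eye and head development stood well above it in head, with 12 of 20 members (60.0%) against 5 in testis (25.0%). Head sites only were found at Bx, disco, disco-r, ey, mid, oc, so, ss and tsh, testis sites only at otp and pros, and both at H15, eya and hth. At the T-box gene H15 the head site (508 bp) and the testis site (403 bp) were 1406 bp apart by midpoints. The median length of this list was 19660 bp, and 17.8% of genes of 5000 bp or more had a head site and 25.4% a testis site. The list, like the others, was chosen with earlier results of these data known, so its share in head is no independent result.

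Neuronal genes had sites in both tissues. In the synaptic list, with a median length of 14668 bp, 8 of 21 members had a head site (38.1%) and 7 a testis site (33.3%). Gad1, which encodes the enzyme of GABA synthesis, brp and Rim of the active zone and the serotonin transporter gene SerT had sites of both tissues at different places. The nearest pair was 389 bp apart at Gad1, 3385 bp at brp, 3825 bp at Rim and 2656 bp at SerT, by midpoints. Syn, Syt1, VGAT and futsch had head sites only and ChAT, Snap25 and VGlut testis sites only. Of 32 neuronal ion channel genes, with a median length of 33226 bp, 8 had a site in head (25.0%) and 8 in testis (25.0%), and GluClalpha and KCNQ had sites of both. Among 41 adhesion and axon guidance genes, with a median length of 40368 bp, 7 had a head site (17.1%) and 10 a testis site (24.4%). The adhesion shares and the testis share of the ion channels were close to the 17.8% (head) and 25.4% (testis) of all genes of 5000 bp or more. That range starts far below the median lengths of these 2 lists and does not match them in length. Among the 1012 genes over 20000 bp, 160 had head sites only and 207 testis sites only. A further 111 had sites of both tissues at different places and 6 at the same place. The lists were not set against shares of genes of that length. Lar, a receptor phosphatase gene, and DIP-gamma had sites of both tissues that lay 34837 and 44873 bp apart.

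Phototransduction genes were near sites of both tissues as well, 8 of 22 in head (36.4%) and 9 in testis (40.9%). The shares of all genes were 9.07% in head and 17.8% in testis. The median length of this list was 3074 bp, and of all genes of 2164 to 4999 bp 9% had a head site and 19.1% a testis site. The opsin gene Rh4, the phosphatase gene rdgC and trp had sites of both tissues, and none overlapped. Arr1, Gbeta76C, Rh5, ninaC and norpA had head sites only, and Galphaq, Rh3, Rh6, inaC, inaD and trpl testis sites only. Of 33 neuropeptide and receptor genes, with a median length of 8089 bp, 4 had a head site (12.1%) and 8 a testis site (24.2%). sNPF-R, the receptor gene of short neuropeptide F, had a head site of 515 bp at its upper end and a nearest testis site 2457 bp away. Among 23 clock output genes, with a median length of 15367 bp, 2 had a head site (8.70%) and 6 a testis site (26.1%). For all genes of 5000 bp or more, which also bear on the neuropeptide list, these shares were 17.8% and 25.4%.

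Genes of late male germ cells were near or below the background in the testis list, and near the shares of genes of their length. Of 17 meiotic arrest genes 3 had a testis site (17.6%), namely kmg, vis and twe, the last of which, a Cdc25 phosphatase gene, also had a head site 748 bp away. Of 28 spermiogenesis genes 4 had one (14.3%), Mst84Dd, Mst98Ca, S-Lap5 and fzo. The median length was 2393 bp for the meiotic arrest list and 1581 bp for the spermiogenesis list. A testis site was found at 19.1% of all genes of 2164 to 4999 bp and 14.3% of those of 1179 to 2163 bp. At fzo, a mitofusin gene of spermatids, the head site (293 bp) lay outside the lower end and met a CYC head site, and the testis site (398 bp) lay inside. Among 13 testis-type proteasome paralogues only Prosbeta5R2 was listed, in either tissue. The list of stem cell, niche and cyst genes stood above the background and had 10 of 25 members with a testis site (40.0%), among them hh, put, tkv, Egfr and Socs36E, and 4 with a head site. Its median length was 9416 bp, and 25.4% of all genes of 5000 bp or more had a testis site.

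Of 20 piRNA genes, which silence transposons in the germ line, 6 had a head site (30.0%) and 7 a testis site (35.0%). The median length of this list was 3553 bp, and of all genes of 2164 to 4999 bp 9% had a head site and 19.1% a testis site. The helicase genes vas and armi and the genes nxf2 and tej had sites of both tissues at different places. In vas the head sites (2L 15065850 to 15066079 and 15067047 to 15067306) lay below the testis site (15069089 to 15069573, 484 bp). For other tissues that the dissections could hold, 6 of 23 glial, fat body and muscle genes had a testis site (26.1%) and 2 a head site (8.70%). In the accessory gland list 2 of 13 genes had a testis site (15.4%) and none a head site. Of 16 eye pigment genes 3 had a head site (w, cn and p, 18.8%) and 3 a testis site (w, cd and ry, 18.8%). The shares of all genes were 17.8% in testis and 9.07% in head. These are counts of bound genes and say nothing of the cells present.

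Several families of short genes had few head sites. No odorant receptor gene of 59 had one, and 1 of 60 gustatory receptor genes (Gr28a), 1 of 60 ionotropic receptor genes (Ir75c), 1 of 51 odorant-binding protein genes (Obp99b) and 2 of 118 cuticular protein genes (Cpr50Cb and Cpr51A) did. Testis sites were found at 8 (13.6%), 12 (20.0%), 17 (28.3%), 6 (11.8%) and 19 (16.1%) members of these families, in that order. Cytochrome P450 genes had a head site in 2 of 83 cases (2.41%) and a testis site in 14 (16.9%). The median lengths of these families were between 788 and 2099 bp, and 3.48% of all genes of up to 1178 bp and 6% of those of 1179 to 2163 bp had a head site. The testis shares of the same genes were 12.4% and 14.3%, below those of the gustatory and ionotropic receptors. Among other families of similar length, 5 of 35 UDP-glycosyltransferase genes (14.3%) and 5 of 88 ribosomal protein genes (5.68%) had a head site, and 8 (22.9%) and 10 (11.4%) had a testis site. A list of 43 P450 genes had 2 members with a head site (4.65%) and 8 with a testis site (18.6%). Of 24 heat shock protein genes, with a median length of 2361 bp, 2 had a head site (8.33%) and 8 a testis site (33.3%). For all genes of 2164 to 4999 bp these shares were 9% and 19.1%. The replication-dependent histone genes had no head site in 111, while 108 had a testis site. They lie in 1 tandem cluster (2L 21416953 to 21541681). There 1 site counts for several genes, and reads from the repeats cannot be placed with certainty. Without sites in this cluster, contigs, the Y and the mitochondrial genome, the testis list held 2337 sites in place of 2491. Genes with testis sites only then numbered 2046 in place of 2154.

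**Figure D5:**
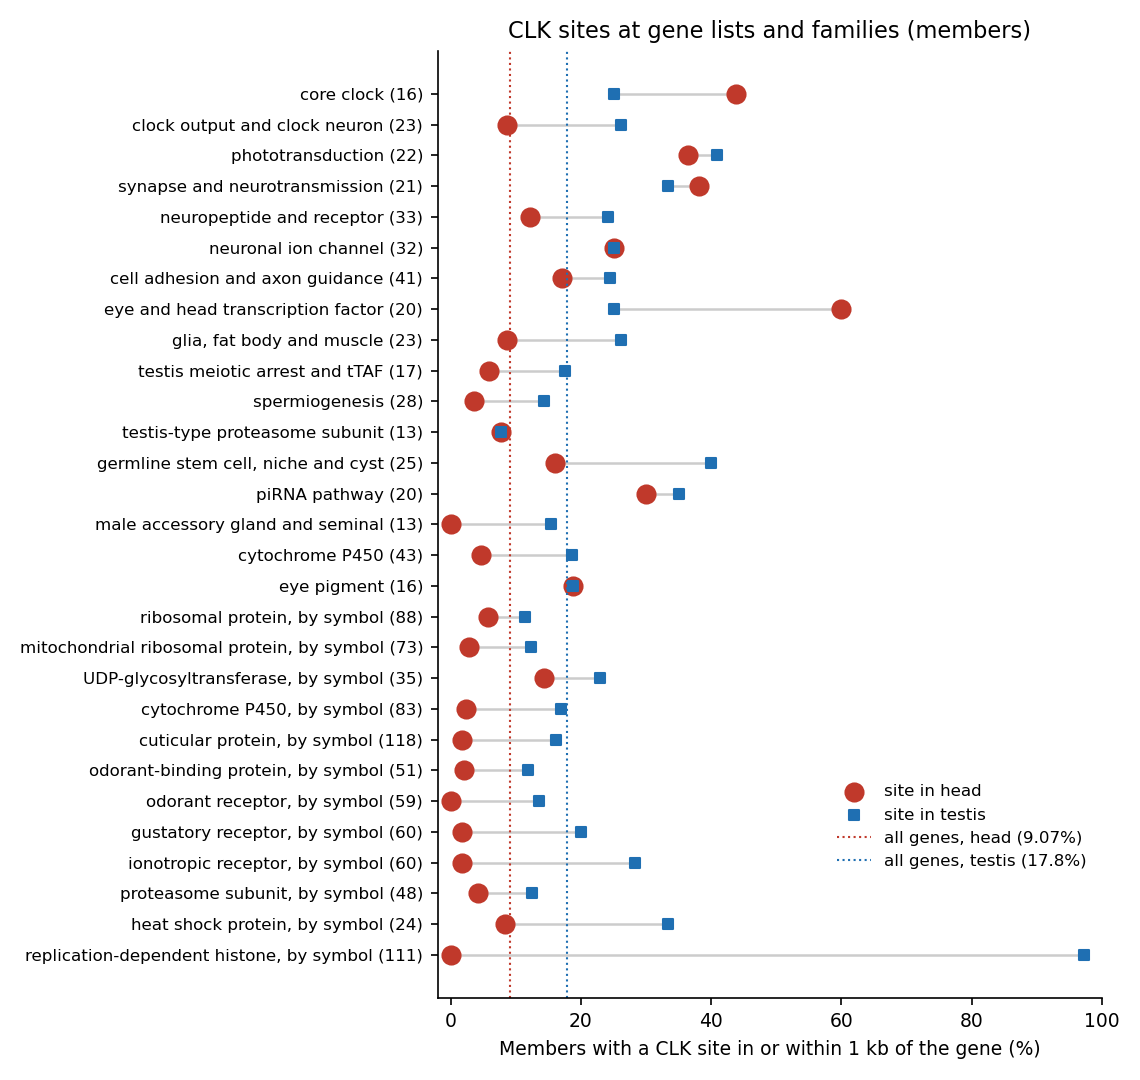
Share of the members of each list or family (x axis, %; number of genes in brackets) with a CLK site in or within 1 kb of the gene, for head (red circles) and testis (blue squares); dotted lines mark the share of all genes, 9.07% for head and 17.8% for testis. Eye and head transcription factors (60.0%) and core clock genes (43.8%) lie far above the line in head. Odorant receptor, accessory gland and replication-dependent histone genes have no head site. Lists and families were chosen with earlier results of these data known, and the lines do not allow for gene length.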

How the data were processed

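The deposited data comprised 6 lists of peaks (CLK and CYC, each in 3 tissues) with chromosome, start and end in 3 columns and no header. The submitters' processing notes name build dm6 and, in no order, MACS2, ChIPseeker, Bowtie2, fastp, SAMtools, deepTools and Picard. Neither thresholds nor the way in which replicates were pooled is given in the sources used here. The authors' lists hold no height, fold or q-value. Lists were matched to tissues by the initials in their names. Positions are printed as deposited, and whether starts count from 0 or 1 was not stated; no pair of CLK sites in head and testis touched without overlap, so the choice does not change the matches.

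Genes were the 13922 protein-coding genes on 6 chromosomes or arms of the NCBI RefSeq table (Release 6 plus ISO1 MT), which gives no strand, exons or sequence. The planned motif counts were therefore not made. Overlaps and assignments were computed in Python 3.11.15 with pandas 2.3.3 and scipy 1.17.1, and the functions were tested on simulated sites. The members, the 17 gene lists (400 distinct genes matched, 7 entries through synonyms, 6 unmatched) and the gene families, taken by symbol, were chosen with earlier results of these data known. Genes were named by rule: all with overlapping sites, the 10 with the widest sites in each other class, all core clock genes and up to 4 members of each list. Further list members, genes at the extremes of a distance and members of families were named after their values were seen.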

Additional observations from a re-analysis of the deposited data

Results flagged for a closer look

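The testis list held 65 CLK sites outside the chromosomes used for genes (2.61%, exact 95% interval 2.02 to 3.31%), and the head list held none (exact 95% interval up to 0.362%). This signal was singled out because it lies in data that the gene comparison does not use and exceeds a fixed floor of 3 sites. That floor is 0.12% of the testis list and 0.295% of the head list. Of the 65 sites, 39 were on the Y, 3 on the mitochondrial genome and 23 on unplaced or random contigs. Neither their source nor the mapping of reads to repeats was tested.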

How the results depend on the processing

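More genes were bound in testis only than in head only under each alternative except equal lists, and fewer at the same than at different places under each alternative that gave both counts. Counts that moved by more than 1.5 times were as follows. Head sites overlapping a testis site (29) became 14 with reciprocal overlap of 50%, 55 with gaps up to 500 bp, 12 in the widest 50% of each list and 16 with the testis list reduced by width to the size of the head list. Genes bound at the same place (32) became 17, 69, 12 and 17 under those settings, 56 with a window of 3 kb and 19 with gene ends only. Genes with sites in both tissues (326) became 647 with 3 kb, 121 with gene ends only, 189 with the single nearest gene, 89 in the widest 50% and 156 with equal lists. Genes in head only (937) became 579 in the widest 50%. Genes in testis only (2154) became 3377 with 3 kb, 1245 in the widest 50% and 939 with equal lists, where they fell below the 1107 genes in head only. Fewer sites or a smaller or larger window make these counts smaller or larger by construction. The other 35 recomputed counts stayed within 1.5 times, including those without the histone cluster, contigs, Y and mitochondrial genome, without regions in 4 or more lists and, added after the data were seen, without Clk, w and y or without X genes. No paired analysis was possible because 1 list was given for both replicates, and for the same reason no replicate was left out. Without scores, width took the place of a stricter threshold.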
